A study of Mus musculus with 8 samples.

Results

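The base excision repair genes were described in mouse embryonic stem cells (mESCs) that had been cultured in space or on the ground. They were chosen by name, as the rows of the deposited count table whose Ensembl identifiers belong to Ung, Ogg1, Mutyh, Tdg, Neil1, Neil3, Apex1, Xrcc1, Parp1 and Polb. All 10 genes were found among the 50686 identifiers of the table. RNA was sequenced as 8 libraries, 1 for each combination of location (Space or Ground), genotype (R9wt, wild-type, or R9del, Rad9-/-) and culture duration (D1, 1 day, or D5, 5 days). Space cultures were carried in the payload of the SJ-10 satellite, ground cultures were kept in a payload of the same kind, and all cells were fixed in RNAlater. The paper lists microgravity, radiation, other stress of space and the vibration of launch and return as differences between space and ground. These cannot be told apart in the comparison of location. D1 and D5 cells grew in different sets of culture devices, each with its own temperature control, and fewer cells had been seeded for D5. In space, D1 cells were fixed earlier than D5 cells, and both were then stored cold until the satellite returned. Culture duration, device set, seeding and storage time therefore cannot be told apart. For D5, more R9del than R9wt cells had been seeded, so at D5 genotype and seeding cannot be told apart either. No condition had a replicate. In each comparison below, 4 libraries stand against 4 that differ from each other in the remaining conditions, and the p-values measure the spread between those libraries only.

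Base excision repair removes single damaged bases from DNA. A DNA glycosylase cuts out the base, an AP endonuclease nicks the strand at the site left behind, a polymerase fills the gap and a ligase seals it, while poly(ADP-ribose) polymerase and the scaffold Xrcc1 gather the later factors at the break. Oxidation, deamination and alkylation of bases are the lesions for which the pathway is best known, and embryonic stem cells, which divide fast, express much of it. Rad9 is a subunit of a DNA damage checkpoint clamp that binds several enzymes of this pathway.

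Library totals lay between 58238440 and 96416907 counts, and the 10 genes had between 419 and 41321 counts in a library, far above the 3 counts that a count of 0 allows (at most 0.0503 CPM, counting error only). Expression is given as CPM, counts relative to the library total after scaling with edgeR's TMM factors. Rad9a, the gene deleted in R9del, had 70.3 to 93.4 CPM in the R9wt libraries and 20.8 to 28.6 CPM in the R9del libraries, so no library went against its label. The 10 mESC markers summed to between 5385 and 8150 CPM in every library, against 29.0 to 87.8 CPM for 10 fibroblast markers. Of the fibroblast markers, between 4 and 7 were under 1 CPM in a library, and Lum was at 0 in 7 libraries and Dcn in 6. Others were detected in every library, with 11.8 to 38.7 CPM for Thy1, 3.48 to 26.8 for Pdgfrb and 3.85 to 10.4 for Col1a1. Acta2 ranged from 0.407 CPM to 37.2 CPM (Space_R9wt_D5). In such bulk samples, fewer cells of a type and less RNA per cell cannot be told apart.

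Summed over the 10 genes, the libraries held between 921 and 1124 CPM. To compare levels between genes, CPM was divided by the length of the merged exons of the mm9 annotation. On this scale Parp1, which senses strand breaks and builds poly(ADP-ribose), stood first with 127 ± 24.5 CPM per kb (SD, n = 8 libraries over all conditions). Apex1, the main AP endonuclease, followed with 88.4 ± 22.6, then the gap-filling polymerase Polb with 68.2 ± 18.7 and Xrcc1 with 56.5 ± 10.9 CPM per kb. The glycosylases were all lower. Ung, which removes uracil from DNA, had 22.8 ± 14.2 CPM per kb, Ogg1, which removes 8-oxoguanine, 20.1 ± 6.44, and Mutyh, which removes adenine paired with 8-oxoguanine, 13.8 ± 4.99. Neil1 and Neil3, which remove oxidised pyrimidines, had 7.28 ± 1.48 and 3.02 ± 1.53 CPM per kb, and Tdg, which removes thymine mispaired with guanine and oxidised forms of methylcytosine, had 1.92 ± 0.328. Between neighbours in this order, only the ranges of Xrcc1 (43.0 to 72.4) and Ung (7.74 to 40.0) did not overlap. The value of Tdg is uncertain, since 58.4% of its exon bases have a near-identical copy elsewhere in the genome (at least 95% identity over at least 50 nt), the longest of 1750 nt.

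**Figure D1:**
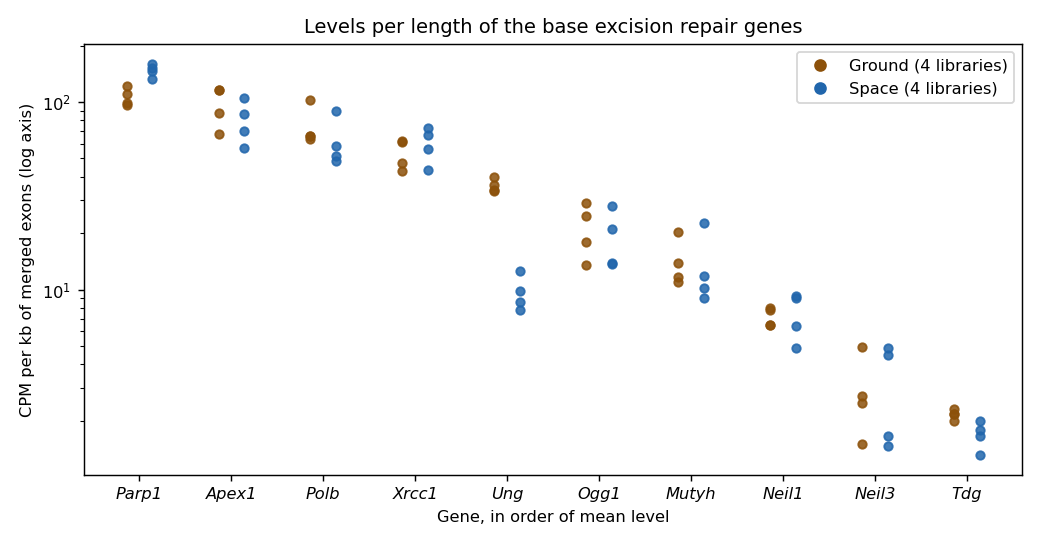
Expression per exon length (CPM per kb of merged exons, log axis) of the base excision repair genes, ordered by mean level, with 1 point per library and ground and space libraries in separate columns. Parp1, Apex1, Polb and Xrcc1 lie above the glycosylases, and Ung is the gene whose space and ground points stand furthest apart.

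The promoters of Ung, Neil3 and Parp1 are shown because these are the genes with the lowest p in the comparisons of location (Ung and Parp1) and genotype (Neil3). The sequences come from the RefSeq promoter table of the GRCm38.p6 assembly, which held 9 of the 10 genes (not Polb), and each was placed in mm9 by its only exact match on its chromosome. Capitals mark GGGCGG, the core of the GC box, on either strand (CCGCCC on the other), and in Neil3 a pair of overlapping matches forms 1 run. The Ung promoter lies at chr5:114580194-114580493 on the plus strand, that of Neil3 at chr8:54724370-54724669 on the minus strand and that of Parp1 at chr1:182498772-182499071 on the plus strand.
Ung: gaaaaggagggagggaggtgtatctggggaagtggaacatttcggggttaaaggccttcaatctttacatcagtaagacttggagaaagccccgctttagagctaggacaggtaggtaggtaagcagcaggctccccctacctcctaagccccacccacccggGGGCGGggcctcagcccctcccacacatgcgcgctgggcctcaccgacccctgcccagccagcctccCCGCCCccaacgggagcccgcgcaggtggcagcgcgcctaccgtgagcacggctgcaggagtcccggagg
Neil3: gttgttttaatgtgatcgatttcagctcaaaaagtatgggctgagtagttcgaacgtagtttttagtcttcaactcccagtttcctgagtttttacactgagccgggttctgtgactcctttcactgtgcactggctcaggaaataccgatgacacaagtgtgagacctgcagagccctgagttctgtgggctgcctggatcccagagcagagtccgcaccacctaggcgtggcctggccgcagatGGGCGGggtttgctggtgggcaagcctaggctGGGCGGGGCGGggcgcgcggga
Parp1: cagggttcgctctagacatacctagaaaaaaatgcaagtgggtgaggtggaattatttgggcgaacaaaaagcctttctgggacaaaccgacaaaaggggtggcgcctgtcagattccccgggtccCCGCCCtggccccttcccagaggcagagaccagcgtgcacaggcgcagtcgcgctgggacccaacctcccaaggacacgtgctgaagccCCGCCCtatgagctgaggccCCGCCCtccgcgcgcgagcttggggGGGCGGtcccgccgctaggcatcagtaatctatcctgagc
The motif occurred 2 times in Ung, 3 times in Neil3 and 4 times in Parp1, and in 35.7% of the 32851 promoters of the table. CCAAT, searched on both strands, was absent from these 3 windows and occurred in 37.4% of all promoters. These matches describe the letters of the windows only.

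The first comparison asked how the genes differed between the 4 space and the 4 ground libraries. Of the 10 genes, 1 passed the test and it was lower in space (Ung, edgeR's quasi-likelihood test, adjusted p under 0.05), where 6.33% of the 20473 genes tested passed, 5.32% lower and 1.01% higher. All 10 passed the filter on low counts. The median log2 fold change of the 10 was -0.12 and that of all genes tested 0.01. Groups did not overlap for 2 of the 10 genes, Ung (lower) and Parp1 (higher), against 14.4% of all genes tested (9.37% lower and 5.07% higher).

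**Figure D2:**
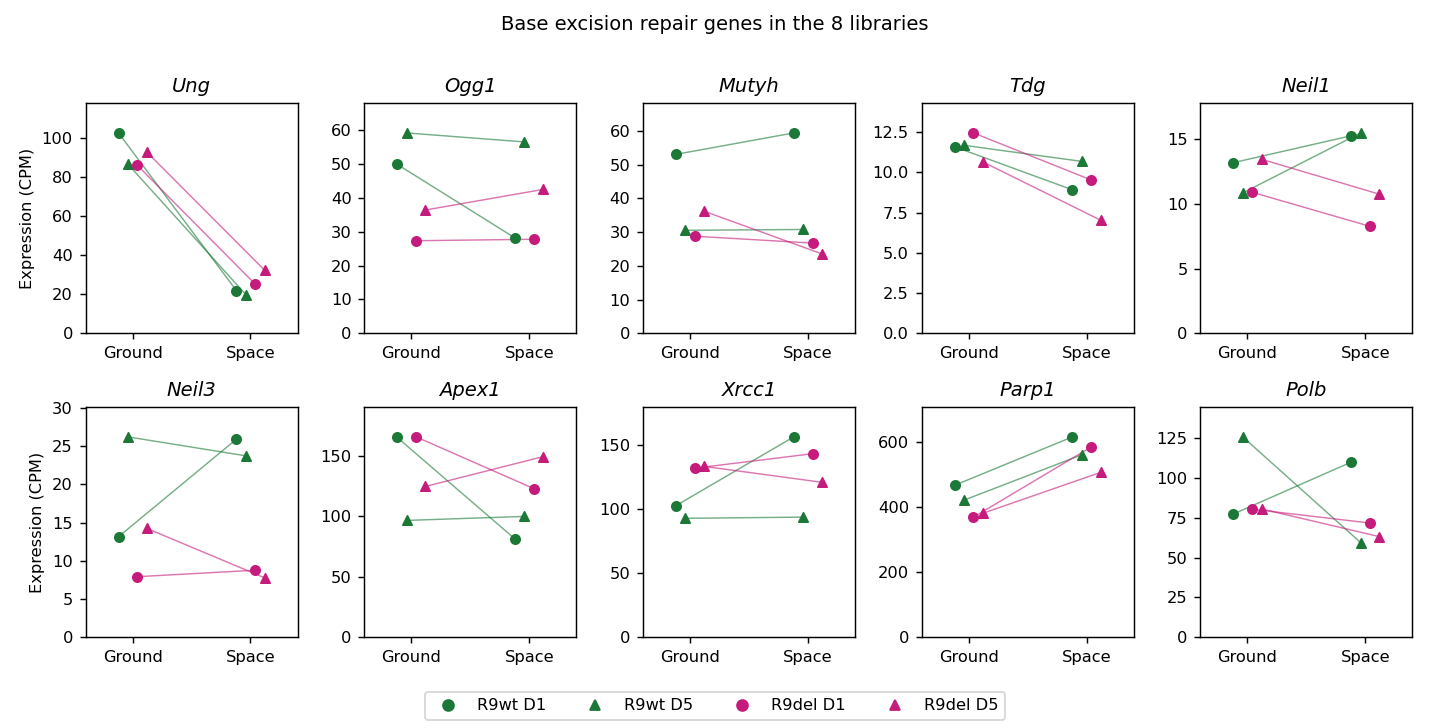
Expression (CPM, linear axes from 0) of each base excision repair gene in the ground and space libraries, with 1 point per library and lines joining libraries of the same genotype and culture duration. The lines of Ung all fall from ground to space, and those of Parp1 all rise, while the lines of the others, Tdg excepted, go both ways.

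Ung (ENSMUSG00000029591, chr5:114580395-114589332 of mm9, plus strand, 7 merged exons) encodes the main uracil-DNA glycosylase. It had 103 CPM in Ground_R9wt_D1, 86.1 in Ground_R9del_D1, 86.7 in Ground_R9wt_D5 and 92.9 in Ground_R9del_D5. In space it had 21.9 CPM in Space_R9wt_D1, 25.2 in Space_R9del_D1, 19.9 in Space_R9wt_D5 and 32.3 in Space_R9del_D5. Every ground library was well above every space library, and the groups did not overlap. The means were 92.1 ± 7.7 CPM on the ground and 24.8 ± 5.45 CPM in space (SD, n = 4 libraries each), a 3.71-fold lower level in space. Ung fell by 1.89 on the log2 scale (SE 0.21, edgeR adjusted p = 0.000482), lower in 4 of 4 matched pairs, and the two-sided exact permutation test over libraries gave p = 0.0286, the smallest that 4 against 4 allows. Location took 95.8% of the variation of log2 CPM of Ung over the libraries, and its range was 5.16-fold, where the median range of all genes tested was 3.81-fold. Without any 1 of the libraries the log2 difference stayed between -2.04 and -1.79 with an adjusted p of at most 0.00332.

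Some properties of genes moved with location over the whole table. The most GC-rich window of 200 nt in the exons of Ung held 73.5% GC. In the bin of 3501 genes whose richest window had 69.5 to 75.5% GC, 10.3% were called lower in space, against between 0.8% and 1.51% in the 3 bins of lower GC and 15.3% in the bin above. The other 2 members in the upper bins, Xrcc1 (71.5%) and Tdg (76.5%), did not pass the test. The 10 proliferation markers summed to between 3539 and 4474 CPM on the ground and between 4441 and 5436 CPM in space. Of these 10 markers, 8 had a positive log2 difference (median 0.28). In edgeR 1 passed lower and 1 higher, where 5.32% and 1.01% of all genes tested did. Ccna2, a cyclin of the S and G2 phases, fell by 2.13 (log2, adjusted p = 0.000367). Mcm4, a subunit of the replicative helicase, rose by 0.96 (adjusted p = 0.0143). The summed mESC markers lay between 5402 and 6332 CPM in space and between 5385 and 8150 CPM on the ground. Of the 10 mESC markers, 4 had a positive log2 difference (median -0.33). Again 1 passed higher, Esrrb, which rose by 1.16 (edgeR adjusted p = 0.00796), and 1 lower, Sox2, which fell by 0.97 (adjusted p = 0.0269). Of 7 primitive endoderm markers 1 passed, Sox17, which fell by 3.92 from at most 6.11 CPM (adjusted p = 0.0181), where 6.33% of all genes tested passed. Of these 7 markers, 5 had a positive log2 difference (median 0.98), and their sums overlapped, with 30.9 to 68.2 CPM on the ground and 17.0 to 222 CPM in space. The part of these factors in the Ung result was not tested.

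Parp1 (chr1:182499086-182531384, plus strand, 23 merged exons) was the member that differed in the opposite direction with groups that did not overlap. It had 468, 369.7, 422 and 382 CPM in Ground_R9wt_D1, Ground_R9del_D1, Ground_R9wt_D5 and Ground_R9del_D5, and 617, 586, 562 and 508 CPM in the space libraries in the same order. Each space library was above each ground library, but the highest ground value and the lowest space value were close. The log2 difference was 0.47 (SE 0.17, 1.38-fold, higher in 4 of 4 pairs), which did not pass in edgeR (adjusted p = 0.157, exact permutation p = 0.0286). With DESeq2's Wald test, which called 11.6% of all genes, the difference was 0.53 and passed (adjusted p = 0.022). The unadjusted p stood under 0.05 for 2 members, Ung and Parp1, against 18.8% of all genes tested, and for Ung alone without Ground_R9del_D1 or without Ground_R9del_D5.

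The other glycosylases among the 10 members overlapped between space and ground. Tdg had 11.6, 12.45, 11.7 and 10.65 CPM on the ground (in the order R9wt D1, R9del D1, R9wt D5, R9del D5) and 8.91, 9.52, 10.7 and 7.03 CPM in space. It was lower in space in 4 of 4 pairs, but the ranges just overlapped, and the log2 difference of -0.36 (SE 0.25) did not pass (adjusted p = 0.517). Ogg1 had 49.9, 27.3, 59.2 and 36.4 CPM on the ground and 28.2, 27.8, 56.5 and 42.5 CPM in space in that order, so that it was lower in space in 2 pairs and higher in 2 (log2 difference -0.16, SE 0.32). Camk1, which overlaps 11.41% of the exon bases of Ogg1 on the opposite strand, had a log2 difference of -1.95 (adjusted p = 0.0135), and the strand handling of the counting is not given in the sources used here.

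Mutyh had 53.1, 28.8, 30.5 and 36.2 CPM on the ground and 59.4, 26.7, 30.8 and 23.5 CPM in space. Neil1 had 13.2, 10.9, 10.9 and 13.5 CPM on the ground and 15.3, 8.27, 15.5 and 10.8 CPM in space. For both, the pairs split 2 to 2 and the log2 differences were -0.08 (SE 0.34) and 0.04 (SE 0.28). Neil3 had 13.2, 7.92, 26.2 and 14.25 CPM on the ground and 25.9, 8.77, 23.75 and 7.78 CPM in space, with a log2 difference of 0.11 (SE 0.49). Its difference between genotypes, where the groups overlapped, is described below.

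Past the glycosylases, Apex1 had 165, 166, 96.6 and 125 CPM on the ground and 81.2, 123, 99.9 and 149 CPM in space. It was lower in space at D1 in both genotypes and higher at D5 in both, although in R9wt at D5 the values were nearly equal. Its log2 difference over all libraries was -0.28 (SE 0.25, edgeR adjusted p = 0.628). Of its exon bases, 61.67% overlap Tmem55b on the opposite strand, which was lower in space by itself (log2 difference -1.55, adjusted p = 0.0238). Xrcc1 had 103, 132, 92.7 and 133 CPM on the ground and 156, 143, 93.6 and 121 CPM in space, higher in 3 of 4 pairs by an overall log2 difference of 0.16 (SE 0.22). Polb had 77.5, 80.5, 126 and 80.7 CPM on the ground and 110.1, 71.8, 59.5 and 63.2 CPM in space, higher in 1 of 4 pairs (log2 difference -0.26, SE 0.26). Neither passed the test, with adjusted p-values of 0.778 and 0.675.

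**Figure D3:**
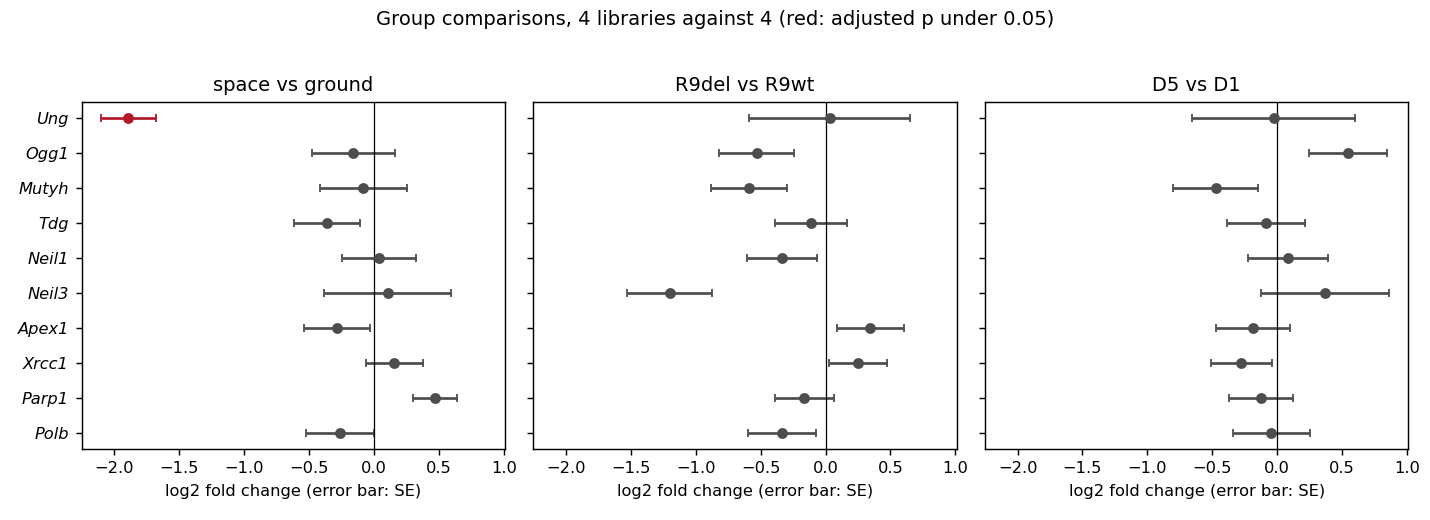
Log2 fold change of each base excision repair gene in the 3 group comparisons (4 libraries against 4), with error bars of 1 SE from edgeR's quasi-likelihood test and red for an adjusted p under 0.05. Ung in space against ground (-1.89) is the red point, and Neil3 in R9del against R9wt (-1.20) is the furthest of the others from 0.

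The second comparison asked how the genes differed between R9del and R9wt. In edgeR none of the 10 passed at an adjusted p under 0.05, where 1.82% of all genes tested did. At an unadjusted p under 0.05 there was 1 member, Neil3, against 20.3% of all genes. Neil3 was also the 1 member past the thresholds of the study (at least 2-fold with an unadjusted p under 0.05), which 13.8% of all genes passed, 7.62% in the lower direction. The count at an unadjusted p under 0.05 was 2 in the blocked fit and in the additive model (with Ogg1), 3 without Space_R9wt_D1 (with Ogg1 and Xrcc1), and 2 without Ground_R9wt_D1 (with Apex1), without Space_R9wt_D5 or without Ground_R9wt_D5 (both with Mutyh), where between 17.2% and 28.7% of all genes had one. The median log2 difference of the 10 genes was -0.25 and that of all genes tested -0.06. Groups did not overlap for 0 of the 10 genes, against 14.3% of all genes. In a fit that blocks on the matched pairs, and in DESeq2's Wald test, the count was 1 of 10, again Neil3, where 8.18% and 9.99% of all genes tested passed.

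Neil3 (chr8:54672221-54724419, minus strand, 13 merged exons) encodes a glycosylase for oxidised bases in single-stranded and forked DNA that is found mainly in dividing cells. The R9wt libraries held 13.2 CPM in Ground_R9wt_D1, 25.9 in Space_R9wt_D1, 26.2 in Ground_R9wt_D5 and 23.75 in Space_R9wt_D5. The R9del libraries held 7.92 CPM in Ground_R9del_D1, 8.77 in Space_R9del_D1, 14.25 in Ground_R9del_D5 and 7.78 in Space_R9del_D5. R9del was lower in 4 of 4 matched pairs, but the lowest R9wt library was below the highest R9del library, so the groups overlapped. The means were 22.3 ± 6.17 CPM in R9wt and 9.68 ± 3.08 CPM in R9del (SD, n = 4 libraries each). The log2 difference was -1.20 (SE 0.33, 2.3-fold lower), with an adjusted p = 0.0879 in edgeR and an exact permutation p = 0.0571. Blocking on the matched pairs gave a difference of -1.20 that passed (adjusted p = 0.0316), as it did with DESeq2's Wald test (adjusted p = 0.0108) and in an additive model of the 3 conditions (adjusted p = 0.0495). Leaving out 1 library at a time gave -1.42 to -1.11, with adjusted p-values of 0.0521 to 0.241. Genotype took 70.7% of the variation of log2 CPM of Neil3.

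The 4 neural markers that could be matched summed to between 26.5 and 46.7 CPM in R9wt and between 101.9 and 132 CPM in R9del. In R9del most of this was Tubb3, a neuronal tubulin, with a mean of 87.2 CPM against 13.9 CPM in R9wt (log2 difference 2.65, edgeR adjusted p = 0.0336). Neurog2 was at 0 in 2 libraries and at most 0.179 CPM in the others. Of 5 mesendoderm markers, 0 had a positive log2 difference between R9del and R9wt (median -1.16). In edgeR 0 of these 5 passed, where 1.82% of all genes did. Their sums lay between 14.8 and 33.5 CPM in R9wt and between 6.18 and 17.3 CPM in R9del. The 10 proliferation markers summed to between 3539 and 5095 CPM in R9wt and between 3980 and 5436 CPM in R9del. The part of the neural, mesendoderm and proliferation markers in the Neil3 values was not tested.

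Among the 10 members, Ogg1 and Mutyh were the glycosylases with the next largest differences between genotypes. Ogg1 averaged 48.4 ± 14.1 CPM in R9wt and 33.5 ± 7.31 CPM in R9del (SD, n = 4 libraries each) and was lower in R9del in 4 of 4 pairs (log2 difference -0.53, SE 0.29, adjusted p = 0.335). Mutyh averaged 43.5 ± 15.0 and 28.8 ± 5.37 CPM, lower in 3 of 4 pairs (log2 difference -0.59, SE 0.29, adjusted p = 0.292). For Mutyh the R9wt values were split by culture duration, with 53.1 and 59.4 CPM at D1 and 30.5 and 30.8 CPM at D5, while the R9del values lay between 23.5 and 36.2 CPM. Neil1 and Tdg differed by -0.34 (SE 0.27) and -0.11 (SE 0.28) on the log2 scale.

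Among the later factors, Apex1 averaged 111 ± 37.2 CPM in R9wt and 141 ± 20.6 CPM in R9del, higher in R9del in 4 of 4 pairs, although in the ground D1 pair the values were nearly equal (log2 difference 0.35, SE 0.26, adjusted p = 0.489). Xrcc1 differed by 0.25 (SE 0.22), Polb by -0.33 (SE 0.26) and Parp1 by -0.17 (SE 0.23, lower in 4 of 4 pairs). None of these passed the test. Ung, which had the largest difference by location, had 57.8 ± 43.1 CPM in R9wt and 59.1 ± 35.3 CPM in R9del, with a log2 difference of 0.03 (SE 0.62).

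The third comparison asked how the genes differed between D5 and D1. In edgeR 0 of the 10 genes passed at an adjusted p under 0.05 and 0 had an unadjusted p under 0.05, where 0% and 4.37% of all genes did, and DESeq2's Wald test also called 0 of the 10 (0.44% of all genes). In the blocked fit, in the additive model and without Ground_R9wt_D1, 1 member (Ogg1) had an unadjusted p under 0.05, against 8.94%, 10% and 4.26% of all genes. Groups overlapped for every member, where 2.85% of all genes did not overlap. Ogg1 had the lowest p of the 10. It had 28.2, 49.9, 27.8 and 27.3 CPM at D1 (in the order Space R9wt, Ground R9wt, Space R9del, Ground R9del) and 56.5, 59.2, 42.5 and 36.4 CPM at D5. It was higher at D5 in 4 of 4 pairs, but Ground_R9wt_D1 was above both R9del libraries of D5 (log2 difference 0.55, SE 0.30, adjusted p = 1). Mutyh differed by -0.47 (SE 0.33) and Neil3 by 0.37 (SE 0.50). The other 7 genes lay between -0.28 (Xrcc1) and 0.09 (Neil1). All 7 primitive endoderm markers had a positive log2 difference (median 1.35), with sums of 17.0 to 67.2 CPM at D1 and 49.7 to 222 CPM at D5. So did all 7 fibroblast markers tested (median 0.35), but only 1 of 10 proliferation markers (median -0.28). None of these markers passed in edgeR, where 0% of all genes did. Their part in the values of the members was not tested.

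Whether the difference between space and ground itself differed between genotypes was tested as an interaction, with culture duration as a covariate. In edgeR 0 of the 10 genes passed, with 0 at an unadjusted p under 0.05, where 0% and 2.97% of all genes tested did, and 0 had an unadjusted p under 0.05 in DESeq2's Wald test, where 4.4% of all genes had one and 0.112% passed. For Ung the space-to-ground log2 difference was -2.23 in R9wt and -1.77 in R9del at D1, and -2.12 and -1.52 at D5. It was thus smaller in R9del at both times, and the interaction was 0.54 (SE 0.37, adjusted p = 1), less than 2 SE from 0. For Neil3 the interaction was -0.76 (SE 0.58) and for Neil1 -0.71 (SE 0.48). The interactions with culture duration were added after seeing the data. Of all 30 interactions of the 10 genes, Apex1 with location and culture duration was the 1 with an unadjusted p under 0.05 (0.89, SE 0.35, adjusted p = 0.719 in edgeR), where 6.65% of all genes had one. For genotype and culture duration 0 members and 4.4% of all genes had one.

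Between single libraries that differ in 1 condition there is no replicate and no test, and genes were counted past a 2-fold ratio alone. The study also required a p-value under 0.05, so these counts are not its calls. Ung was at least 2-fold lower in space in 4 of 4 pairs, with space-to-ground ratios of 0.214 (R9wt D1), 0.293 (R9del D1), 0.23 (R9wt D5) and 0.348 (R9del D5). In these pairs 19.8%, 12%, 19.3% and 15.1% of the 17597 genes counted were at least 2-fold lower. Apex1 (ratio 0.492, R9wt D1) and Polb (0.473, R9wt D5) each passed in 1 pair, and Neil3 stood just short of the threshold in 1 (1.97, R9wt D1). With TMM scaling no member was 2-fold higher in space, where 14.1%, 9.09%, 16.8% and 7.85% of genes were, while under both other scalings 1 member was 2-fold higher and 1 lower in the R9wt D1 pair.

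For genotype, the R9del-to-R9wt ratio of Neil3 was 0.339 in the D1 space pair and 0.328 in the D5 space pair, against 0.603 and 0.544 on the ground. It thus passed 2-fold in both space pairs and in neither ground pair, and its interaction of location and genotype did not pass (above). Mutyh passed in 1 pair, that of the space cultures at D1 (0.45). In the space pairs 15.9% (D1) and 13.5% (D5) of genes were at least 2-fold lower, and in the ground pairs 11.8% and 15%. For culture duration, Ogg1 in Space_R9wt passed 2-fold higher at D5 (2.01, where 14.9% of genes did), a value at the threshold that did not pass with either other scaling.

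**Figure D4:**
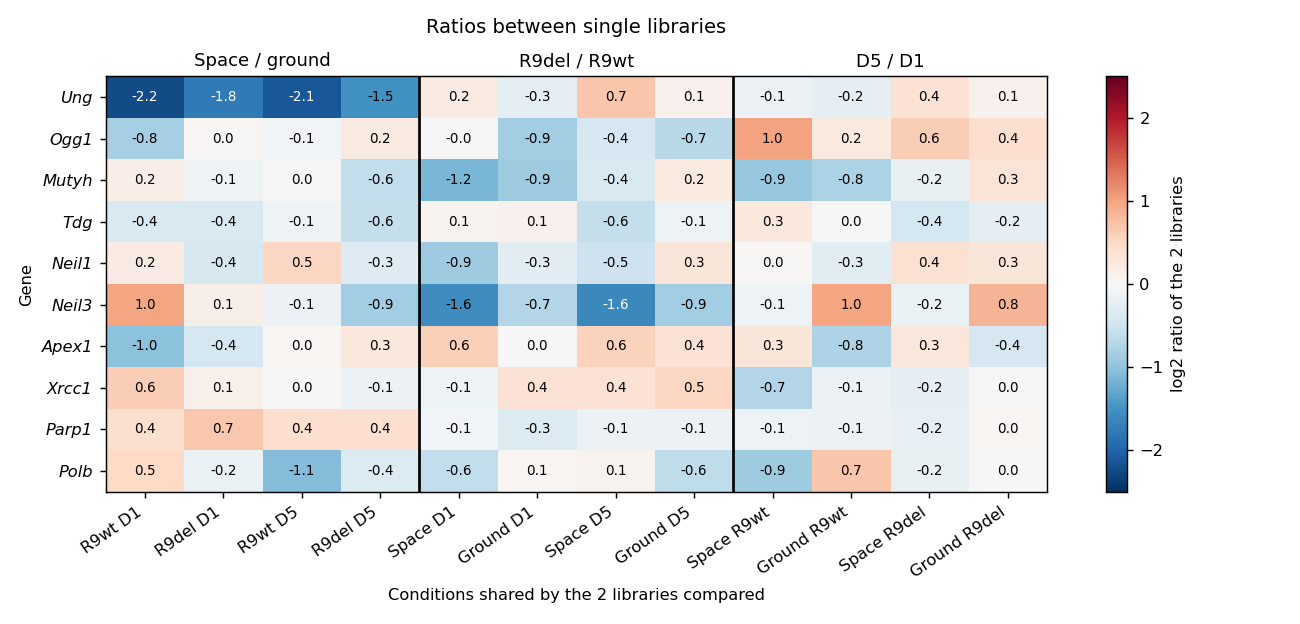
Log2 ratio (colour and printed value) of each base excision repair gene between single libraries that differ in location, genotype or culture duration, with 1 column per pair and no replicate. The row of Ung is between -2.2 and -1.5 in the space-to-ground columns and between -0.3 and 0.7 elsewhere, and the row of Neil3 is lowest in the R9del-to-R9wt columns of the space cultures.

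Across the libraries the 10 genes did not move as 1 group. Range folds over the libraries ran from 1.67 (Parp1) to 5.16 (Ung). Location took 79.7% of the variation of Parp1 and 55.8% of that of Tdg, and culture duration 42.6% of that of Ogg1, while 66.6% of that of Polb and 60.6% of that of Neil1 lay outside the 3 conditions taken singly. With 1 library a condition, that remainder cannot be divided between interactions and differences between libraries. As a description over 8 libraries that share their conditions, the pairs of members with the highest Pearson r of log2 CPM were Neil1 with Neil3 (0.65) and Mutyh with Neil1 (0.645), and those with the lowest were Ogg1 with Xrcc1 (-0.948), Ung with Parp1 (-0.892) and Neil3 with Apex1 (-0.841). Among 9680 genes with a mean log2 CPM of at least 3, the gene most like Ung was Cyc1, a subunit of respiratory complex III (r = 0.997), the gene most like Neil3 was Abca7, a lipid transporter (0.987), and the gene most like Parp1 was Mcm4 (0.979). The best matches of the other 7 genes had r between 0.943 and 0.987.

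The rest of the pathway was taken from a list of 28 other genes, all of which were tested. In space against ground, 1 of 28 passed in edgeR and it was lower (6.33% of all genes passed). The gene was Rfc5, a subunit of the clamp loader that places PCNA on DNA. Blocked on the matched pairs 3 of 28 passed (Rfc5 and Rfc4 lower, Lig3 higher), in DESeq2's Wald test 4 (Rfc5 and Parg lower, Lig3 and Pold3 higher) and in the additive model 5 (Rfc5, Rfc4, Parg and Dut lower, Lig3 higher), where 8.5%, 11.6% and 10.3% of all genes did. Rfc5 had 352, 339, 191 and 327 CPM on the ground (in the order R9wt D1, R9del D1, R9wt D5, R9del D5) and 39.3, 115, 82.1 and 121 CPM in space, so every ground library was above every space library. It fell by 1.76 on the log2 scale (SE 0.36, adjusted p = 0.016), and it no longer passed without Ground_R9wt_D1 (adjusted p = 0.0525), Space_R9wt_D5 (0.0586) or Ground_R9del_D5 (0.0527). Of its exon bases 23.1% have a near-identical copy elsewhere, and 10.69% overlap Wsb2 on the opposite strand.

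By role, 0 of 5 other glycosylases, 0 of 7 genes of single-strand break repair, 1 of 13 genes of long-patch repair, 0 of 2 genes of the nucleotide pool and not Apex2 passed between space and ground. The median log2 differences were 0.37, 0.20, -0.04 and -0.62 for the 4 lists and 0.11 for Apex2. At an unadjusted p under 0.05 there were 9 of the 28, against 18.8% of all genes tested. In R9del against R9wt, 0 of 28 passed in edgeR and 4 had an unadjusted p under 0.05, where 1.82% and 20.3% of all genes did, while 1 (Neil2) passed in the blocked fit, in DESeq2's Wald test and in the additive model, where 8.18%, 9.99% and 7.25% of all genes did. The 3 with the lowest p were Neil2, Pold4 and Fen1.

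Neil2, a glycosylase of the same family as Neil1 and Neil3, had 30.6, 13.1, 19.7 and 19.5 CPM in R9wt (in the order Space D1, Ground D1, Space D5, Ground D5) and 4.95, 3.08, 6.52 and 12.05 CPM in R9del. Each R9del library was below each R9wt library, by a narrow margin for Ground_R9del_D5. The log2 difference was -1.64 (SE 0.45, adjusted p = 0.0873), and it passed when blocked on the matched pairs (-1.75, adjusted p = 0.0266) and with DESeq2's Wald test (adjusted p = 0.00776). Pold4, a small subunit of DNA polymerase delta, differed by -0.93 (SE 0.33, adjusted p = 0.156), and Fen1, the flap endonuclease of long-patch repair, by 1.57 (SE 0.56, adjusted p = 0.163). The Fen1 values of the space R9del libraries, 223 and 214 CPM, stood above all others, which lay between 17.4 and 70.8 CPM, and 84.19% of the exon bases of Fen1 overlap genes on the opposite strand. In D5 against D1, 0 of 28 passed and 0 had an unadjusted p under 0.05 in edgeR, where 0% and 4.37% of all genes did, and 0 passed in DESeq2's Wald test, which called 0.44% of all genes. Aptx, Pole and Pcna had the lowest p there, with log2 differences of -0.41, -0.49 and -0.31.

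**Figure D5:**
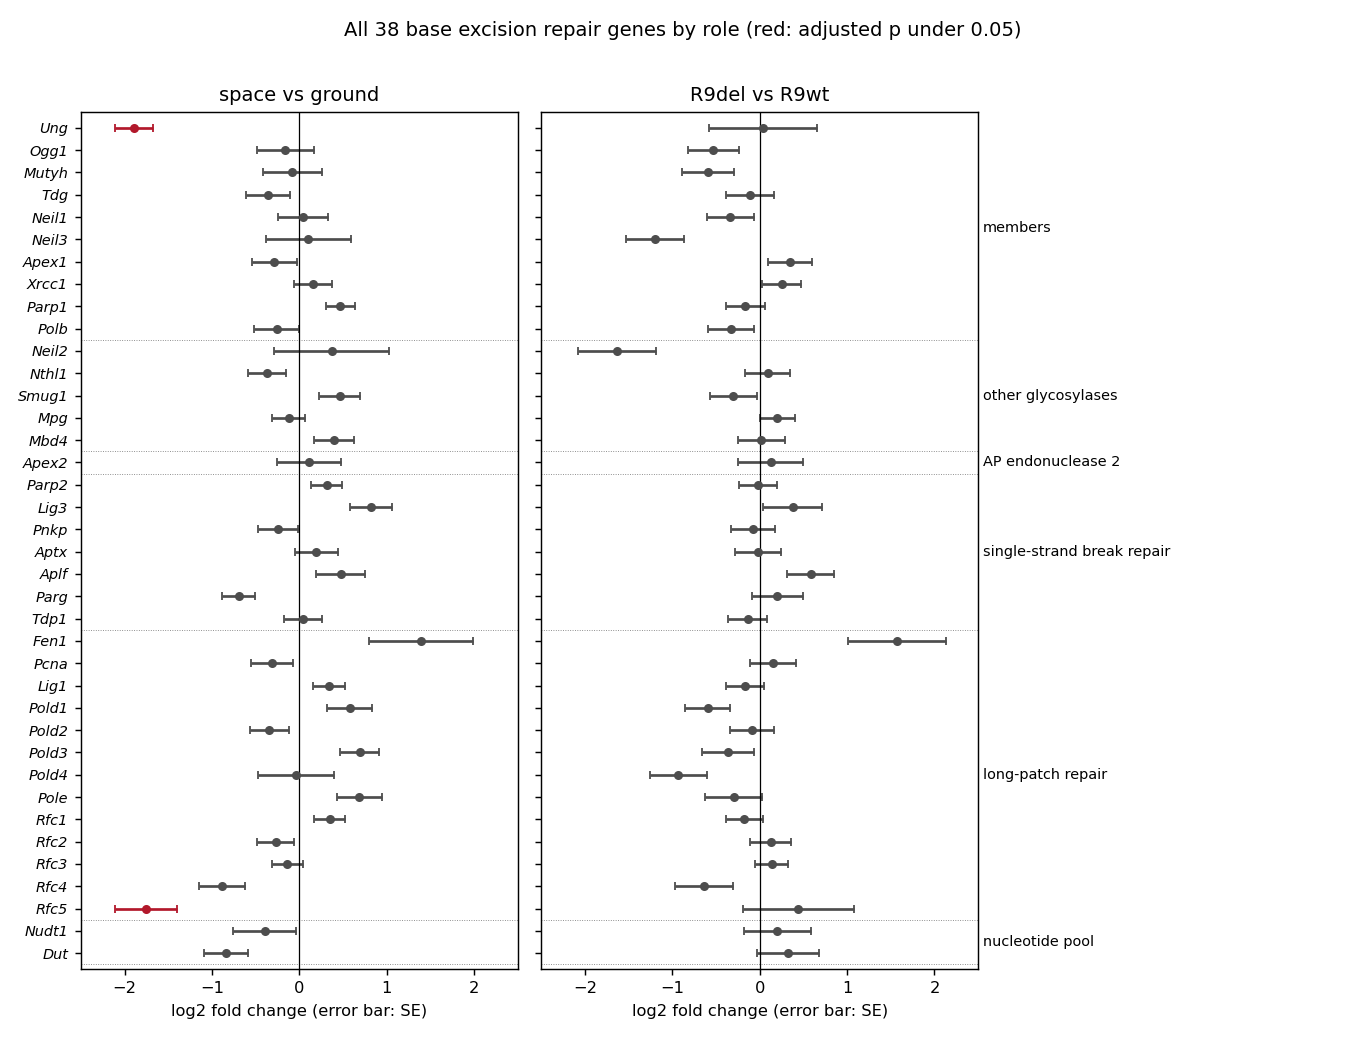
Log2 fold change, with error bars of 1 SE from edgeR's quasi-likelihood test, of 38 base excision repair genes grouped by role, in space against ground and in R9del against R9wt (red, adjusted p under 0.05). Ung and Rfc5 are the red points, both lower in space, and Neil2 and Neil3 are the lowest points of the comparison of genotypes.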

How the data were processed

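The authors aligned paired-end reads of mRNA libraries to mm9 with TopHat2 2.0.9, as the paper and the submitters' processing notes state, and deposited counts per Ensembl gene, whole numbers without normalization. The counting program, gene annotation and strand handling are not given in the sources used here, so how reads shared by overlapping genes or near-identical copies were assigned is unknown. All 8 columns were used. Symbols were found for 64.6% of the 50686 identifiers, which hold 97.1% of counts.

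Counts were scaled with TMM over all genes in edgeR 4.0.16 (R 4.3.3). Groups of 4 libraries were compared by edgeR's quasi-likelihood test on the 20473 genes kept by filterByExpr (minimum count 10), with Benjamini-Hochberg adjustment over all of them and calls at an adjusted p under 0.05. Interactions used the same genes. Single-library comparisons counted ratios of at least 2 among genes with at least 1 CPM in some library. Log2 CPM used a prior count of 2. SDs are over the libraries of a group, and the SE of a fold change was derived from the F statistic. Alternatives were DESeq2 1.42.0's size factors or library size alone, no filter, DESeq2's Wald test, a block for matched pairs, an additive model and leaving out each library. The script was tested on simulated data.

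The named genes are the 10 members, Rad9a, and of 28 other pathway genes those that passed a group comparison, or otherwise the 3 with the lowest p. Likeness names the gene with the highest Pearson r for a member. Camk1, Tmem55b, Ccna2, Esrrb, Sox2, Sox17, Tubb3, Lum, Dcn and Neurog2 were named after their values were seen. So were Thy1, Pdgfrb, Col1a1, Acta2, Lig3, Parg, Pold3, Rfc4 and Dut. The members and lists were chosen with earlier results of these data known. Pairs are libraries that share the 2 other conditions in the labels. Their deviations from the group means correlated between 0.284 and 0.61 for location, 0.35 and 0.488 for genotype, and 0.375 and 0.576 for duration, so the block was run. Coordinates and exons came from the GENCODE annotation of mm9, and copies from BLAST 2.17.0.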

Additional observations from a re-analysis of the deposited data

Results flagged for a closer look

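In 3 of 60 groups of 4 libraries (10 genes in the groups of each location, genotype and culture duration), 1 library lay apart on the log2 scale by Dixon's criterion, which chance alone gives in about 1 in 20 groups. Polb had 126.0 CPM in Ground_R9wt_D5, above the other ground libraries (77.5 to 80.7 CPM). Neil3 had 13.16 CPM in Ground_R9wt_D1, below the other R9wt libraries (23.75 to 26.2 CPM). Ogg1 had 49.9 CPM in Ground_R9wt_D1, above the other D1 libraries (27.3 to 28.2 CPM). All 3 values come from ground R9wt libraries. Apex1 was listed because its difference between space and ground differed between D5 and D1 by 0.89 on the log2 scale (SE 0.35, edgeR unadjusted p = 0.0326, adjusted p = 0.719), 1 of 30 interactions computed for the 10 genes.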

How the results depend on the processing

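Ung was called lower in space under all alternatives run and without any 1 library. The number of members called in space against ground was 2 with DESeq2's Wald test (Ung and Parp1) and 1 under the other alternatives. In R9del against R9wt it was 1 (Neil3) with DESeq2's Wald test, with the matched pairs as a replicate block and in the additive model, and 0 otherwise. In D5 against D1 it was 0 throughout. Leaving out each library gave counts of 1 to 1, 0 to 0 and 0 to 0. The block changed no other call of a member. It moved the count of all genes called from 1296 to 1741 for location and from 372 to 1675 for genotype, and DESeq2's Wald test gave 2383 and 2046. Without 1 library the count for genotype lay between 0 and 525, and the count for duration was 0 except for 90 in DESeq2's Wald test. With library size alone, 1 member in place of 2 was at least 2-fold lower in the R9wt D5 pair of space and ground.

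Log2 differences near 0 changed sign. For Mutyh the difference by location was 5e-04 with library size alone. For Neil1 it was -0.004 in the additive model. For Ung the difference by duration was 0.0206 with the replicate block and 0.0239 in the additive model. The interaction of location and genotype for Polb was -0.0121 in DESeq2's Wald test and -0.0781 when scaled by library size. Leaving out each library gave, for location, -0.45 to 0.14 for Mutyh, -0.0773 to 0.19 for Neil1, -0.19 to 0.49 for Neil3 and -0.39 to 0.0321 for Ogg1. For genotype it gave -0.25 to 0.47 for Ung and -0.24 to 0.0211 for Tdg. For duration it gave -0.36 to 0.38 for Ung, -0.33 to 0.0831 for Polb, -0.0545 to 0.21 for Neil1 and -0.18 to 0.0512 for Tdg. The cause was not tested. None of these differences passed the test. Rad9a, which differed between genotypes by -1.77 (adjusted p = 0.0269), no longer passed without Space_R9wt_D1, Space_R9del_D1, Ground_R9del_D1 or Ground_R9wt_D5 (0.0717 to 0.104). Over the 30 log2 differences of members in the group comparisons, interactions left out, DESeq2's size factors moved a difference by at most 0.0497 and library size alone by at most 0.102. With 1 library a condition, differences between libraries of the same condition were not measured.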
